A study of Mus musculus with 4 samples.

Results

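A set of 7 genes best known from epithelial and secretory cells was followed across liver and white adipose tissue (WAT) of mice labelled as lacking Pnpla7 and of wild-type mice. The 7 genes were Wfdc2, Slpi, Fxyd4, S100g, Tff3, Sprr1a and Ubd, of 24053 genes named on the array, and they were read by 9 of its 39429 probes. They were picked by name because their signal differed between genotypes in these same arrays, so the ratios below describe them and are not tests. The shared description under which they were picked, secretory epithelial genes raised in the knockout, held only in part. Wfdc2 was lower in labelled-knockout liver and Slpi was lower in labelled-knockout WAT, and the products of S100g, Fxyd4 and Ubd are known as a cytosolic protein, a membrane protein and an intracellular modifier, not as secreted proteins. They are therefore called the 7 genes here.

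The groups were liver labelled Pnpla7-/-, liver labelled WT, WAT labelled Pnpla7-/- and WAT labelled WT, all from C57BL/6N mice 4 weeks old, with no treatment given in the labels. Each group was 1 array, hybridised with RNA pooled in equal parts from 5 animals, so the spread between animals was not measured and no difference has a test or a p-value. The sources used here do not state how the Pnpla7 allele was made, which sex the animals had or which fat depot was taken, and the extraction protocol names liver for the WAT samples too. PNPLA7 is a lysophospholipase, and the series is titled for the release of choline from phosphatidylcholine in liver.

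Epithelia that line ducts and body surfaces secrete protease inhibitors and trefoil peptides, carry salt and calcium across their membranes, and build a protein envelope where they keratinise. Wfdc2 and Slpi encode small secreted proteins with the WAP four-disulfide core, of which SLPI inhibits neutrophil serine proteases. Tff3 encodes a trefoil peptide that goblet cells release with mucins, S100g encodes the calcium-binding protein calbindin-D9k of gut and uterus, Fxyd4 encodes a regulator of the sodium pump known from kidney collecting duct and colon, and Sprr1a encodes a precursor of the cornified envelope. Ubd encodes FAT10, a ubiquitin-like modifier that marks proteins for the proteasome and is induced by inflammatory cytokines.

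The probes are 60 bases long, and 4 of them hold AATAAA, the usual polyadenylation signal of mammalian transcripts, so they read the last bases of their messages. The stretches around that signal are shown because they mark where on the transcript the level was read, 5′ to 3′ in the transcript's sense, with AATAAA in capitals, and the Wfdc2 probe without it is shown whole because it reads the same gene from farther upstream.
Wfdc2, probe at base 648: ctttttctaaccAATAAAgtgatcgctttc
Wfdc2, probe at base 292: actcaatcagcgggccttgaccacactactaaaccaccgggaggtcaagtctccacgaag
S100g, probes at bases 406 and 420: atacatactgttAATAAAgcaagttcggag
Tff3, probe at base 370: ctgctgcaggccAATAAAggagccaggagt
Positions count from the start of the transcript that the probe annotation names. The probes of S100g start 14 bases apart and share 46 bases, so they are nearly the same measurement. The Wfdc2 probes lie 356 bases apart on the transcript and share none of it, so they are separate readings of that gene.

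On the mm9 build of the probe annotation, the Wfdc2 probes lie on the plus strand of chromosome 2 (164393947 to 164394006 for the probe at base 648, 164389616 to 164389675 for the probe at base 292). The Slpi probe lies 209.7 kb from them, on the minus strand of chromosome 2 (164179849 to 164179908). The Fxyd4 probe is on the minus strand of chromosome 6 (117883603 to 117883662), the S100g probes on the minus strand of chromosome X (159399938 to 159399997 and 159399924 to 159399983) and the Sprr1a probe on the minus strand of chromosome 3 (92287955 to 92288014). Chromosome 17 holds the Tff3 probe on its minus strand (31262279 to 31262338) and, 6.07 Mb away, the Ubd probe on its plus strand (37332688 to 37332747). Per the probe annotation all 9 lie in transcripts of their genes. Exon and UTR boundaries on this build were not used here.

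A level here is the log2 of a probe's processed signal minus that of the array's 75th percentile, and a log2 ratio is the level on the labelled-knockout array minus the level on the WT array of that tissue. Between 65.5% and 72.6% of spots were well above background on an array, 0 were saturated, and all 4 arrays shared 1 slide and 1 scan. Errors beside levels and ratios are those of the scanner software's error model, which presets a multiplicative error of 0.1, and they cover the spot alone. Different probes of a gene had a pooled SD of the log2 ratio of 0.20 in liver and 0.23 in WAT. Pnpla7 itself, read by 1 probe at base 4129 of its transcript, had a signal of 7.98 times the 75th percentile in labelled-knockout liver and 9.04 times in WT liver, and of 0.372 times in labelled-knockout WAT and 0.739 times in WT WAT. Its log2 ratio was -0.18 ± 0.20 in liver and -0.99 ± 0.20 in WAT (model error), so the liver signal did not fall by more than its error. Which stretch of Pnpla7 the allele lacks was not stated, so this probe may check nothing, and the directions below rest on the labels. The tissue labels were borne out by defining markers. Albumin (Alb) had levels of 8.05 and 8.32 in labelled-knockout and WT liver, and of 1.75 and 3.33 in labelled-knockout and WT WAT, so it was not absent there. Adiponectin (Adipoq) had levels of 7.02 and 6.98 in labelled-knockout and WT WAT and was not well above background in liver.

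Of the 7 genes, 6 were well above background on all 4 arrays, and Fxyd4 was so on the labelled-knockout WAT array alone. In liver, 5 of the 6 measured genes were at least 2-fold higher in the labelled knockout and 1 was lower by that limit. Their median log2 ratio was 3.04. Over all 16395 genes measured in liver the median was -0.04, 1.68% reached that limit upward and 0.872% downward. In WAT, 3 of 6 reached the limit upward, 1 was lower, 2 lay within 2-fold, and the median was 1.28. Over all 17024 genes measured there the median was 0.02, 2.16% reached the limit upward and 1.95% downward. Because the genes were chosen on these ratios, nothing is read from that contrast. Among the 6, S100g and Sprr1a were at least 2-fold higher in both tissues, as were 0.0639% of the 15661 genes measured on all arrays. Wfdc2 and Slpi passed 2-fold in opposite directions in the 2 tissues, as did 0.109% of those genes.

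**Figure D1:**
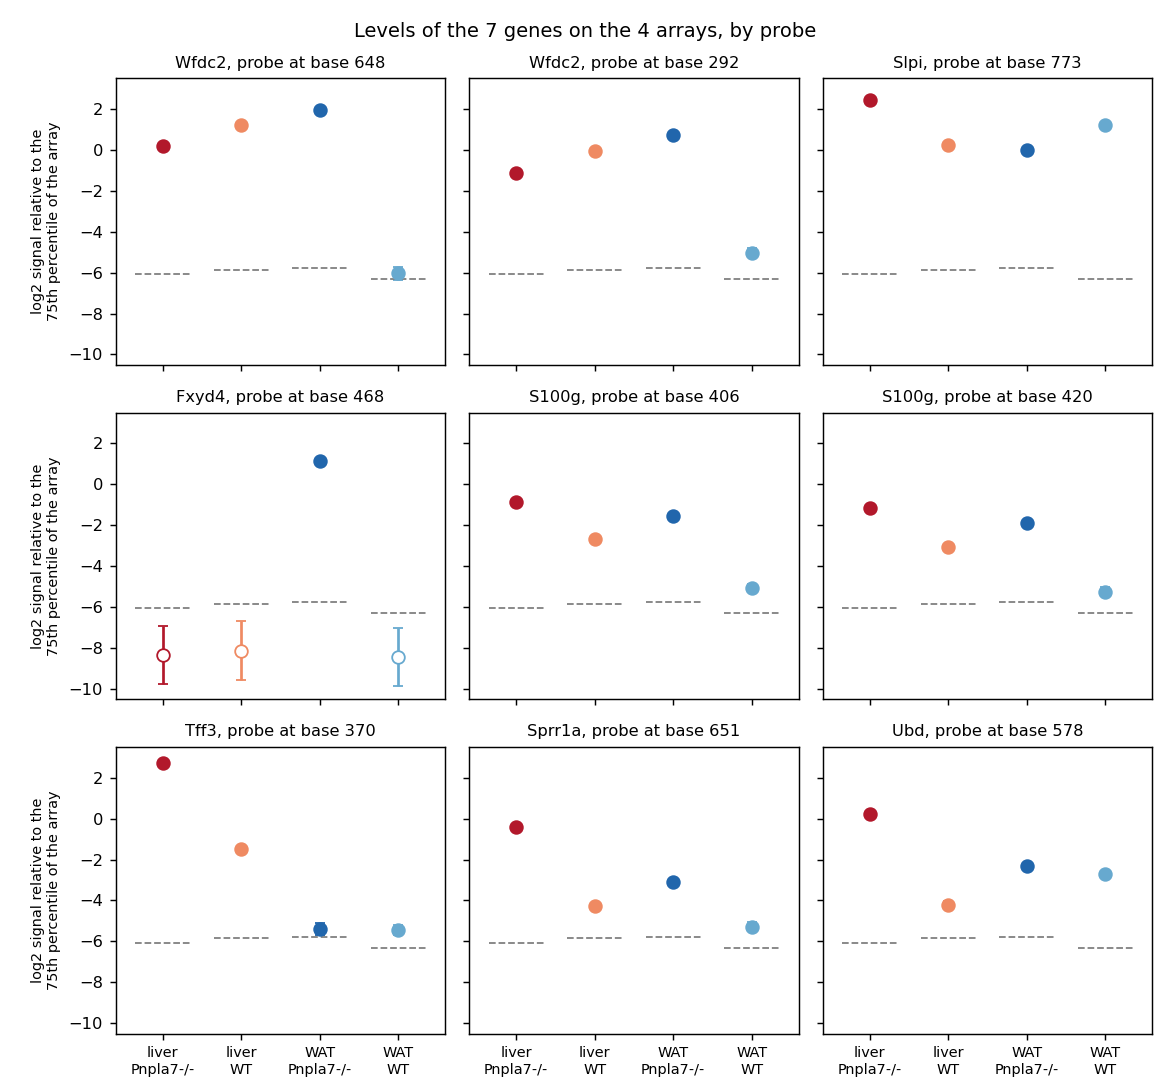
Level of each of the 9 probes (vertical axis, log2 signal relative to the array's 75th percentile) on the 4 arrays, 1 point an array, with bars for the scanner software's model error. Open points are not well above background, and dashed lines mark the lowest probe that was. Fxyd4 is open on 3 arrays, and both Wfdc2 probes are far lower on the WT WAT array than on the other 3.

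Wfdc2 had the highest ratio of any measured gene in WAT. Its probe at base 648 had a level of 1.98 ± 0.14 in labelled-knockout WAT, against -6.03 ± 0.32 in WT WAT, and of 0.21 ± 0.14 in labelled-knockout liver, against 1.20 ± 0.14 in WT liver (model error). The probe at base 292 had levels of 0.71 ± 0.14 in labelled-knockout WAT and -5.02 ± 0.20 in WT WAT, and of -1.13 ± 0.14 in labelled-knockout liver and -0.04 ± 0.14 in WT liver. WT WAT was the low array with each probe, and the order of the other 3 was the same with each: labelled-knockout WAT, then WT liver, then labelled-knockout liver. In WAT the ratio was 258-fold with the probe at base 648 and 53.0-fold with the probe at base 292, and the mean log2 ratio of 6.87 ± 0.22 corresponds to 117-fold. The probes agreed on direction and differed by more than the pooled spread between probes of a gene. The size rests on dim signals in WT WAT, of 25.8 and 52.2 intensity units, where the lowest probe well above background gave 21.3. With the background corrected by normexp and an offset of 50, the log2 ratio in WAT was 5.35. In labelled-knockout liver the gene was 2.06-fold lower (log2 ratio -1.04 ± 0.14), with -0.99 and -1.09 for its probes. That value lay on the 2-fold limit and was within it, between -0.999 and -0.958, under 5 other settings of the processing. On the labelled-knockout arrays Wfdc2 was 3.41-fold and 3.59-fold higher in WAT than in liver by its probes, and on the WT arrays it was 150-fold and 31.4-fold lower in WAT than in liver.

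Slpi had the opposite signs, higher in labelled-knockout liver and lower in labelled-knockout WAT. It had a level of 2.47 ± 0.14 in labelled-knockout liver, against 0.26 ± 0.14 in WT liver, and of -0.02 ± 0.14 in labelled-knockout WAT, against 1.24 ± 0.14 in WT WAT. Labelled-knockout liver was the highest array and labelled-knockout WAT was the lowest, though its error bar touched that of WT liver. The gene was 4.62-fold higher in labelled-knockout liver (log2 ratio 2.21 ± 0.20) and 2.40-fold lower in labelled-knockout WAT (log2 ratio -1.26 ± 0.20). Its lowest signal, 1587 intensity units in labelled-knockout WAT, was far above background, and no setting of the processing put either ratio within 2-fold.

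Slpi and Wfdc2 belong to a family that is clustered on mouse chromosome 2, where 16 of the 23 family genes on the array lie. In liver, 13 family genes were measured, of which 2 were at least 2-fold higher in the labelled knockout and 3 were lower, with a median log2 ratio of 0.09. Wfdc3 was the other higher one, at 1.56, and Wfdc21 and Wfdc16 had -1.49 and -1.35. The Wfdc3 value was 0.44 with normexp and an offset of 50 and 3.04 with no filter on dim probes, and that of Wfdc16 was -0.83 with 50 added to the signal. In WAT, 15 were measured, 3 were higher and 4 lower, with a median of 0.26. Wfdc10, a neighbour on chromosome 2, had a log2 ratio of 2.40 and Wfikkn2 one of 1.83, while Wfdc21, Wfdc12 and Wfdc17 had -1.60, -1.55 and -1.28. Wfikkn2 had 0.99 with normexp and an offset of 50. Wap, the whey acidic protein of milk, was not well above background on any array. On chromosome 2, Wfdc2 and Wfdc10 were thus higher and Wfdc12 and Slpi lower in the same WAT arrays. A further list holds serine proteases that SLPI is known or likely to meet. It also holds Mpo, a peroxidase and not a protease, at -0.88 in liver and -0.42 in WAT. In that list, Mpo included, 0 of 8 measured genes passed 2-fold in liver and 2 of 10 were higher in WAT. Those higher in WAT were St14 and Prss8, epithelial membrane proteases, at 1.44 and 1.17. With normexp and an offset of 50 they had 0.86 and 0.64, both within 2-fold, and the count of higher genes ran between 0 and 2 over the other settings at the 2-fold limit. Elastase (Elane) had a log2 ratio of -0.23 in liver and 0.60 in WAT.

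Fxyd4 was seen on 1 array only. Its signal was 3563 intensity units in labelled-knockout WAT, against 4.85 in WT WAT, and it was 5.42 in labelled-knockout liver and 5.25 in WT liver. The level of 1.14 ± 0.14 in labelled-knockout WAT stands alone, since the other 3 arrays were not well above background and give only a bound. Set against the lowest probe well above background on the WT WAT array, Fxyd4 was at least 175-fold higher in labelled-knockout WAT, a log2 bound of 7.45. That was the highest bound of the 224 genes that were above background on the labelled-knockout WAT array and not on the WT one, of which 63.4% had a bound of at least 2-fold. Against labelled-knockout liver it was at least 148-fold higher, and within liver there is no ratio. With normexp and an offset of 50 the log2 bound in WAT was 5.60.

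Of the other FXYD genes, small membrane proteins that tune the sodium pump, 6 were measured in WAT with 1 higher and 2 lower and a median log2 ratio of -0.03. Fxyd3, also known from epithelia, had 1.52, Fxyd2, the gamma subunit of the kidney pump, had -1.10, and Fxyd5 had -1.02. With normexp and an offset of 50, Fxyd2 and Fxyd5 lay within 2-fold, at -0.99 and -0.91. In liver all 5 measured lay within 2-fold, with a median of -0.32. Among subunits and regulators of the sodium pump and of the epithelial sodium channel, 0 of 10 measured genes in WAT passed 2-fold, with a median of -0.09, and in liver 1 of 10 did, the channel subunit Scnn1a, at -1.32. Scnn1g, a further subunit of that channel, was not well above background on any array, and Scnn1b was so on the WT WAT array alone.

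S100g was higher in the labelled knockout in each tissue and with each probe. The probe at base 406 had levels of -0.86 ± 0.14 in labelled-knockout liver, against -2.67 ± 0.15 in WT liver, and of -1.53 ± 0.15 in labelled-knockout WAT, against -5.06 ± 0.20 in WT WAT. The probe at base 420 had levels of -1.14 ± 0.14 in labelled-knockout liver and -3.06 ± 0.15 in WT liver, and of -1.91 ± 0.15 in labelled-knockout WAT and -5.26 ± 0.22 in WT WAT. Both labelled-knockout arrays were above both WT arrays, as they were for 3 of the 6 measured genes (S100g, Sprr1a and Ubd) and for 4.64% of all genes measured on all arrays. Since the 7 genes were chosen on these arrays, nothing is read from that count. The gene was 3.66-fold higher in liver (log2 ratio 1.87 ± 0.15) and 10.9-fold higher in WAT (3.44 ± 0.18). On the WT arrays it was 5.25-fold and 4.57-fold lower in WAT than in liver by its probes, and on the labelled-knockout arrays 1.59-fold and 1.71-fold lower. With normexp and an offset of 50 the log2 ratios were 1.31 in liver and 2.38 in WAT.

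In the list of S100 genes, most of which encode proteins with the calcium-binding EF hand, S100g had the highest log2 ratio in each tissue. The list also holds S100pbp, whose product binds an S100 protein and is not of that family. In liver 2 of 13 measured were higher and 0 lower, with a median of -0.21, and the other higher one was S100a11, at 1.43. In WAT 1 of 14 was higher and 2 were lower, with a median of -0.14. The lower ones were S100a8, a protein of neutrophils, at -2.17 and S100a4 at -1.04, which was -0.98 with normexp and an offset of 50. S100a9, also a protein of neutrophils, had 0.82 in WAT, in the direction opposite to S100a8. The genes of epithelial calcium transport gave 1 higher of 7 measured in liver and 1 of 8 in WAT, which was S100g each time, with medians of 0.25 and 0.03. Calb1, the larger vitamin D-dependent calbindin, was above background on the labelled-knockout WAT array alone, with a log2 bound of 2.55. The calcium channel Trpv6 had a log2 ratio of 0.09 in liver and 0.55 in WAT. Trpv5, Calb2 and Cyp24a1, the vitamin D 24-hydroxylase, were not well above background on any array.

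Tff3 was a liver difference. It had a level of 2.72 ± 0.14 in labelled-knockout liver, against -1.47 ± 0.15 in WT liver, and of -5.40 ± 0.30 in labelled-knockout WAT, against -5.45 ± 0.25 in WT WAT. The 2 WAT arrays could not be told apart and were close to the lowest level that counts as above background, while the liver arrays were far apart. In liver the gene was 18.2-fold higher in the labelled knockout (log2 ratio 4.19 ± 0.20). With the reported processing that was the next to highest ratio of any measured gene. In WAT the log2 ratio of Tff3 was 0.05 ± 0.39. Between tissues it was 277-fold lower in WAT than in liver on the labelled-knockout arrays and 15.7-fold lower on the WT arrays. The related trefoil peptides were dim: Tff1 was above background on the labelled-knockout liver array alone, with a log2 bound of 0.39, and Tff2 had a log2 ratio of -0.76 in liver. Of the trefoil and mucin genes, 1 of 9 measured in liver, Tff3, was at least 2-fold higher and 0 were lower, with a median of -0.14. In WAT 0 of 7 passed 2-fold, with a median of 0.06. Fcgbp was above background on the labelled-knockout WAT array alone, with a log2 bound of 1.81. Muc4, with a log2 bound of 0.24, and Smgc were so on the WT WAT array alone. The membrane mucin gene Muc1 had a log2 ratio of -0.25 in liver, and Muc16 had one of -0.96 in WAT. With normexp and an offset of 0, Tff2 had -1.36 and Muc1 -1.17 in liver. The count of lower genes of this list in liver ran between 0 and 3 over the other settings at the 2-fold limit.

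Sprr1a was higher in the labelled knockout in both tissues. It had a level of -0.40 ± 0.14 in labelled-knockout liver, against -4.28 ± 0.17 in WT liver, and of -3.10 ± 0.15 in labelled-knockout WAT, against -5.28 ± 0.21 in WT WAT. The gene was 14.7-fold higher in liver (log2 ratio 3.88 ± 0.23) and 4.53-fold higher in WAT (2.18 ± 0.26). With normexp and an offset of 50 these log2 ratios were 2.56 and 1.30. Of 14 small proline-rich genes on the array, 3 were well above background on any array, Sprr1a among them. Sprr2a2 had a log2 ratio of -0.11 in liver and 0.01 in WAT, each from 1 of its 3 probes. With no filter on dim probes Sprr2a2 had -0.52 in liver and 1.18 in WAT. Sprr4 was measured in WAT only, at 0.29. Of the cornified envelope genes, 0 of 8 measured passed 2-fold in liver and 1 of 9 in WAT, which was Cdsn, corneodesmosin, at -1.69, with medians of 0.01 and 0.07. Loricrin (Lor), the main envelope protein of skin, had 0.49 in liver and 0.46 in WAT, and the cross-linking enzyme Tgm1 had 0.46 and -0.11. Involucrin (Ivl) and filaggrin (Flg) were not well above background on any array.

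Ubd had the highest ratio of any gene measured in liver with the reported processing. Its level was 0.22 ± 0.14 in labelled-knockout liver, against -4.23 ± 0.20 in WT liver, and -2.33 ± 0.15 in labelled-knockout WAT, against -2.71 ± 0.15 in WT WAT. WT liver was the lowest array and labelled-knockout liver the highest, with both WAT arrays between them. The gene was 21.8-fold higher in labelled-knockout liver (log2 ratio 4.45 ± 0.24), and in WAT it was 1.30-fold higher (0.38 ± 0.21). With normexp and an offset of 50 the log2 ratio in liver was 2.88, below that of Tff3, at 3.94. Tff3 was also above Ubd with normexp at an offset of 0 and with 50 added to the signal. On the WT arrays Ubd was 2.87-fold higher in WAT than in liver, and on the labelled-knockout arrays it was 5.85-fold lower.

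Of 15 genes that act with FAT10 or are induced by the same cytokines, Ubd included and all measured in both tissues, Ubd was the only one past 2-fold in liver, and 0 passed in WAT, with median log2 ratios of -0.13 and 0.13. Uba6, the enzyme that activates FAT10, had a log2 ratio of 0.46 in liver and -0.11 in WAT, but its liver value turned to -0.17 and -0.18 with normexp at offsets of 50 and 0. The immunoproteasome subunits Psmb8 and Psmb9, which interferon gamma induces, had -0.26 and -0.22 in liver and 0.37 and 0.15 in WAT. Of 14 lymphoid genes measured in liver, 0 were higher and 1 was lower (Cxcl13, a B-cell chemokine, at -1.75). Of 14 measured in WAT, 1 was higher, which was Cxcl13 at 1.19, and 0 were lower. With normexp and an offset of 50, Cxcl13 had 0.97 in WAT.

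**Figure D2:**
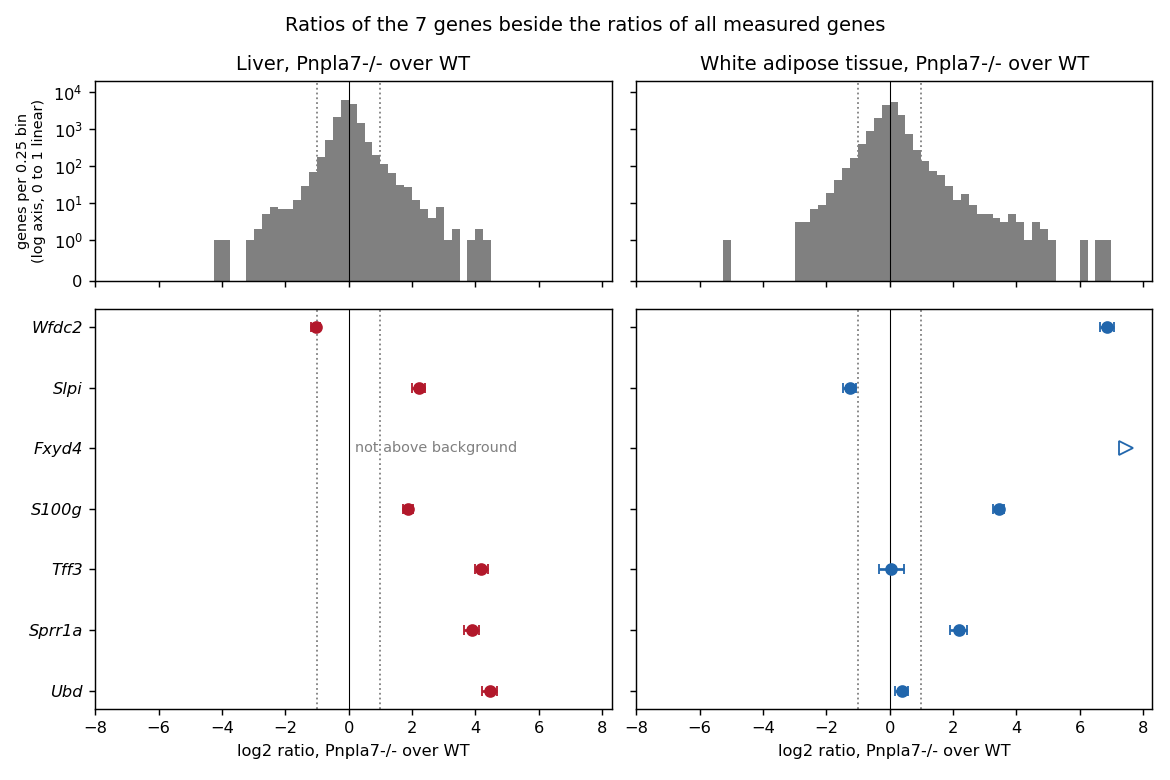
Log2 ratio of the labelled-knockout array over the WT array in liver (left) and WAT (right), for the 7 genes below and as a histogram of all measured genes above, whose count axis is logarithmic from 1 upward. Bars are the model error, the open triangle is the lower bound of Fxyd4, and dotted lines mark 2-fold. Ubd, Tff3 and Sprr1a lie at the high end in liver and Wfdc2 and Fxyd4 at the high end in WAT.

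The difference between the tissues, taken as the WAT log2 ratio minus the liver log2 ratio, was 7.91 ± 0.26 for Wfdc2 and 1.57 ± 0.23 for S100g. It was -3.47 ± 0.29 for Slpi, -4.14 ± 0.44 for Tff3, -1.70 ± 0.35 for Sprr1a and -4.07 ± 0.32 for Ubd (model error). By this measure these 6 genes did not form 1 pattern: Wfdc2 and S100g had the higher log2 ratio in WAT, and Tff3, Ubd, Slpi and Sprr1a had it in liver. Fxyd4 has no liver ratio to set beside its bound in WAT. With 1 array a group these differences were not tested.

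Genes that mark epithelium in general were higher in labelled-knockout WAT in part. Of 28 listed, 20 were measured on both WAT arrays, 7 were at least 2-fold higher and 1 was lower (Mal2, at -1.30), with a median log2 ratio of 0.33. The tight-junction gene Cldn3 had a log2 ratio of 4.58, the epithelial transcription factor Grhl2 2.18, the keratin Krt18 2.17 and the protease inhibitor Spint1 1.89. A further 4 were above background on the labelled-knockout array alone, among them the adhesion genes Cdh1, with a log2 bound of 2.77, and Epcam, with 1.54. The cadherin gene Cdh3 was above background on the WT WAT array alone, with a log2 bound of 0.91 in the other direction. Elf3 was not well above background on either WAT array. Summed over the brightest probe of each gene and in units of the array's 75th percentile, the list reached 13.1 in labelled-knockout WAT and 9.09 in WT WAT. The number of higher genes ran between 4 and 13 under the other settings at the 2-fold limit. In liver, 21 were measured, 2 were higher (Grhl1 at 1.38 and Marveld3 at 1.17) and 1 was lower (Prom1 at -1.13), with a median of 0.13. The summed level was 120.0 in labelled-knockout liver and 93.2 in WT liver. That sum weighs Krt18 most, which had the highest level of the list on both liver arrays, 5.76 in labelled-knockout and 5.29 in WT. Marveld3 had 0.08 with normexp and an offset of 50, and Prom1 had -0.96 with 50 added to the signal. Some genes of this list were thus higher in labelled-knockout WAT beside Wfdc2, Fxyd4 and S100g, while 12 of the 20 measured there lay within 2-fold. The part of the list in the ratios of Wfdc2, Fxyd4 and S100g was not tested. In RNA from whole tissue, more cells of a type and more RNA per cell cannot be told apart.

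**Figure D3:**
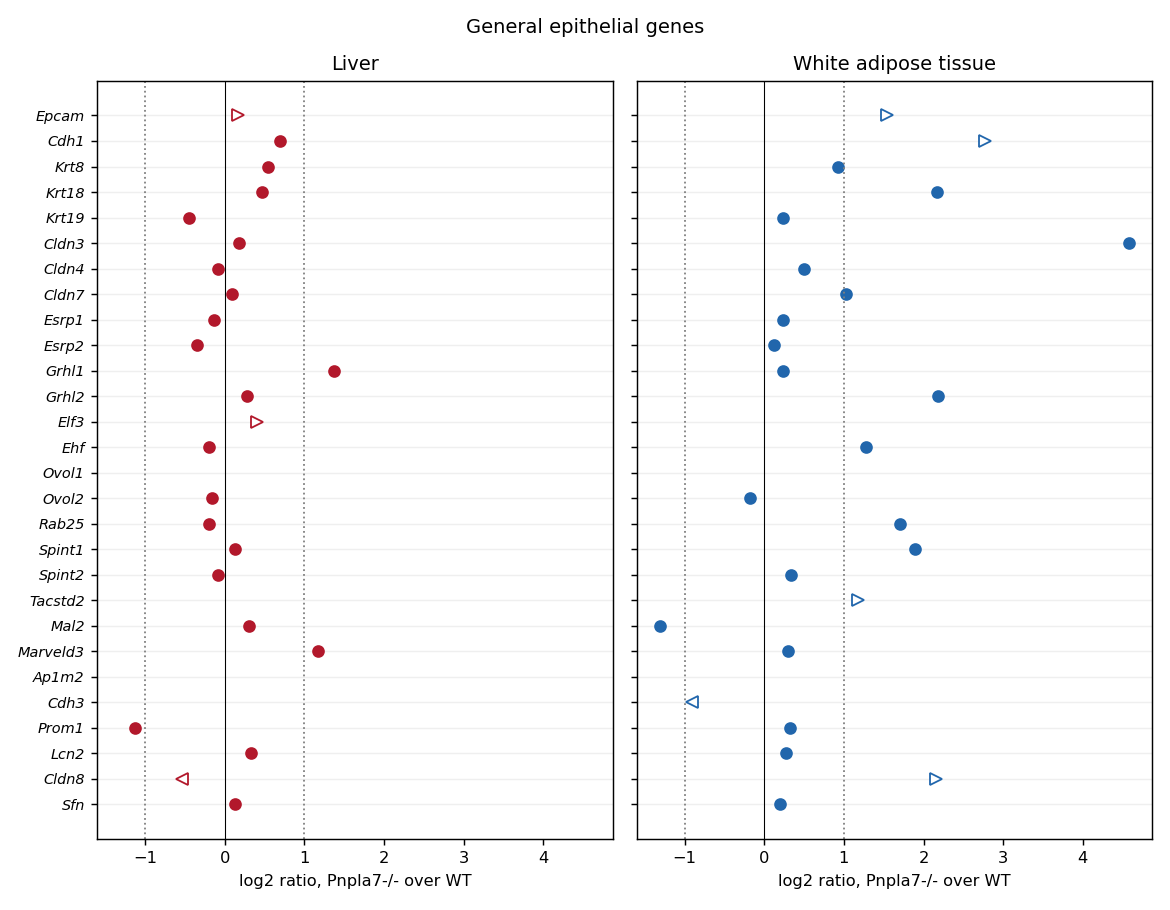
Log2 ratio of the labelled-knockout array over the WT array for the 28 general epithelial genes in liver (left) and WAT (right). Filled points were measured on both arrays, open triangles are bounds where 1 array of the pair was above background, pointing right where that was the labelled-knockout array, rows with no mark were not well above background on either or had a bound under 1-fold, and dotted lines mark 2-fold. Cldn3, at 4.58, is the highest point in WAT, and most genes lie within 2-fold in liver.

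For mammary epithelium, 1 of 10 measured genes was higher in WAT (the progesterone receptor Pgr, at 1.01) and 1 lower (Oxtr at -1.84). The median was 0.35, and summed levels were 8.12 in labelled-knockout WAT and 9.68 in WT WAT. In linear units the fall of Oxtr alone, from a level of 1.74 in WT WAT to -0.10 in labelled-knockout WAT, exceeded that of the sum. Of the defining mammary markers, Elf5, Csn2 and Wap were not well above background on any array. Krt14, Krt5 and Trp63 had WAT log2 ratios of -0.23, 0.52 and 0.49. Bile duct genes gave 0 of 9 in liver and 0 of 8 in WAT, with medians of -0.09 and 0.20 and summed levels in liver of 5.98 in the labelled knockout and 5.47 in WT. Keratinocyte genes gave 1 of 9 in liver (Pkp1, at 1.96) and 0 of 7 in WAT, with Krt1 not well above background on any array and a WAT median of 0.36. Pkp1 had 0.07 in liver with normexp and an offset of 50. Dsp, desmoplakin, was above background on the labelled-knockout WAT array and not on the WT one, with a log2 bound of 2.65. Pkp1 was above background on the WT WAT array alone, with a log2 bound of 0.77 in the other direction. Summed levels of that list were 22.9 in labelled-knockout liver and 26.1 in WT liver, and 1.59 in labelled-knockout WAT and 1.21 in WT WAT. Collecting duct genes gave 0 of 4 in liver and 1 of 5 in WAT (Aqp3, at 1.13), where Aqp2, the vasopressin-regulated water channel of the duct that also expresses Fxyd4, had 0.07. Female reproductive tract genes gave 1 of 8 in WAT (Pax8, at 1.18) and 0 of 2 in liver, with a WAT median of 0.49, and epididymis genes 0 of 2 in WAT and 0 of 3 in liver, with Crisp1 and Lcn5 not well above background on any array. Salivary gland genes gave 1 of 4 in liver (Bhlha15, at 2.35) and 0 of 4 in WAT. Aqp5, listed for salivary gland and for mammary epithelium, was above background on the WT WAT array alone, with a log2 bound of 1.41 toward WT. In both lists 0 genes were above background on the labelled-knockout WAT array alone. Goblet and airway secretory genes gave 0 of 6 in liver and, in WAT, 0 higher and 2 lower of 7 (Scgb3a1 at -1.25 and Agr2 at -1.09). In WAT, 5 of these calls were lost with normexp and an offset of 50, which gave Pgr 0.53, Pax8 0.56, Aqp3 0.59, Scgb3a1 -0.53 and Agr2 -0.70.

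Markers of other tissues also differed in WAT. Of 15 skeletal muscle genes, 14 were at least 2-fold higher in labelled-knockout WAT, with a median log2 ratio of 3.74 and summed levels of 83.7 in labelled-knockout WAT and 14.6 in WT WAT. The fast myosin Myh4, the creatine kinase Ckm and parvalbumin (Pvalb) had 4.73, 4.66 and 4.79. Of 11 hepatocyte genes measured in WAT, 6 were lower past 2-fold, with a median of -1.002, and Alb had -1.58. The summed level of that list went the other way, at 191.8 in labelled-knockout WAT and 133.3 in WT WAT. Cyp2e1, a cytochrome P450 gene of the list, had a log2 ratio of 0.97, while the other measured genes of the list all had negative ones. Cyp2e1 had the highest levels of the list in WAT, 6.86 in labelled-knockout and 5.89 in WT, so the sum weighs it most. Those levels were near its 7.21 and 7.45 in labelled-knockout and WT liver, whereas Alb had 1.75 and 3.33 in labelled-knockout and WT WAT. Adipocyte genes stayed closer, with 1 of 12 past 2-fold (Lep, leptin, at -1.99) and a median of 0.19. The part of tissue composition in the WAT ratios of Wfdc2, Fxyd4, S100g, Sprr1a and Slpi was not tested. In liver, the 12 hepatocyte genes all lay within 2-fold, with a median of -0.28, and of 8 adipocyte genes 2 were higher, Cidec, a lipid droplet protein, at 2.46 and Lpl at 1.02.

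The genes whose 4 levels, centred on the gene's mean, were most like those of the 7 were found among 9138 genes by the root mean square difference over the 4 arrays. For Tff3 the closest was Fgf21, the hepatic fasting hormone, at 0.59 on the log2 scale, followed by Slco1a1 at 0.73 and Afp at 0.90. For Sprr1a they were Gm10512 at 0.29, Bex1 at 0.38 and A830029E22Rik at 0.57, and for Ubd they were Shisa3 at 0.26, Olfr920 at 0.36 and the carbonyl reductase Cbr3 at 0.45. S100g was closest to Slc44a5 at 0.45, to the epithelial transcription factor Tfcp2l1 at 0.46 and to Elf3 at 0.46. The closest to Wfdc2 lay farther away, with the epithelial protease Tmprss2 at 1.42, Acot1 at 1.57 and Cldn8 at 1.74. For Fxyd4 the levels on 3 arrays are themselves background, so its likeness to other genes has no meaning beyond 1 array and none is given. The 3 closest to Slpi (Iqcf4, Gm3830 and 2010300F17Rik, between 0.099 and 0.131) were each above background on 1 array, as were Gm10512, A830029E22Rik, Shisa3, Slc44a5 and Elf3, while Slco1a1, Afp and Cldn8 were so on 2 arrays and Tmprss2 and Olfr920 on 3. Their patterns rest in part on signals at background, and of the genes named here Fgf21, Bex1, Cbr3, Tfcp2l1 and Acot1 were above it on all 4 arrays. A likeness over 4 arrays is a description of these levels.

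RefSeq promoters of the GRCm38.p6 assembly were at hand for 6 of the 7 genes. Tff3 was not matched. Those of Sprr1a and Ubd, both high in labelled-knockout liver, are shown because they held a match to a motif searched, as the 250 bases before the start of the transcript, on the gene's own strand and 5′ to 3′, with matched motifs in capitals.
Sprr1a, chr3:92485882-92486131, minus strand: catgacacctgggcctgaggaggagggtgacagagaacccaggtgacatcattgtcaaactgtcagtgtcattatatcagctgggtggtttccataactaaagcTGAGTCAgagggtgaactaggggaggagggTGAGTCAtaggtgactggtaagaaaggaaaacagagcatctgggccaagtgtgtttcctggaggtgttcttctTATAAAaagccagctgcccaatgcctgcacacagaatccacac
Ubd, chr17:37193642-37193891, plus strand: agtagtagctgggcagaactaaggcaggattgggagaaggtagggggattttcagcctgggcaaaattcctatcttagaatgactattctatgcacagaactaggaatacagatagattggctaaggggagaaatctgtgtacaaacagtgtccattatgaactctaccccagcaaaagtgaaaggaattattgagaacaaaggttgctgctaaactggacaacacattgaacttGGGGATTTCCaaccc
On either strand, the AP-1 motif TGANTCA was found in the Sprr1a window as TGAGTCA at 146 and 116 bases before the start, and the TATA box TATAAA at 43 bases. The NF-kB motif, here GGG, any 2 bases, TTT and CC, was found in the Ubd window as GGGGATTTCC, 15 bases before the start. Over all 27025 promoters of that length, 6.87% held the AP-1 letters, 12.97% TATAAA and 1.40% the NF-kB letters. Each was found in 1 of the 6 promoters. The STAT motif TTCNNNGAA and a motif of the interferon response, GAAA repeated after any 2 bases, were in 0 of the 6, and in 7.18% and 3.04% of all. None of the motifs overlapped another. The motifs were chosen after the windows were seen, and a match is a description of the letters.

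**Figure D4:**
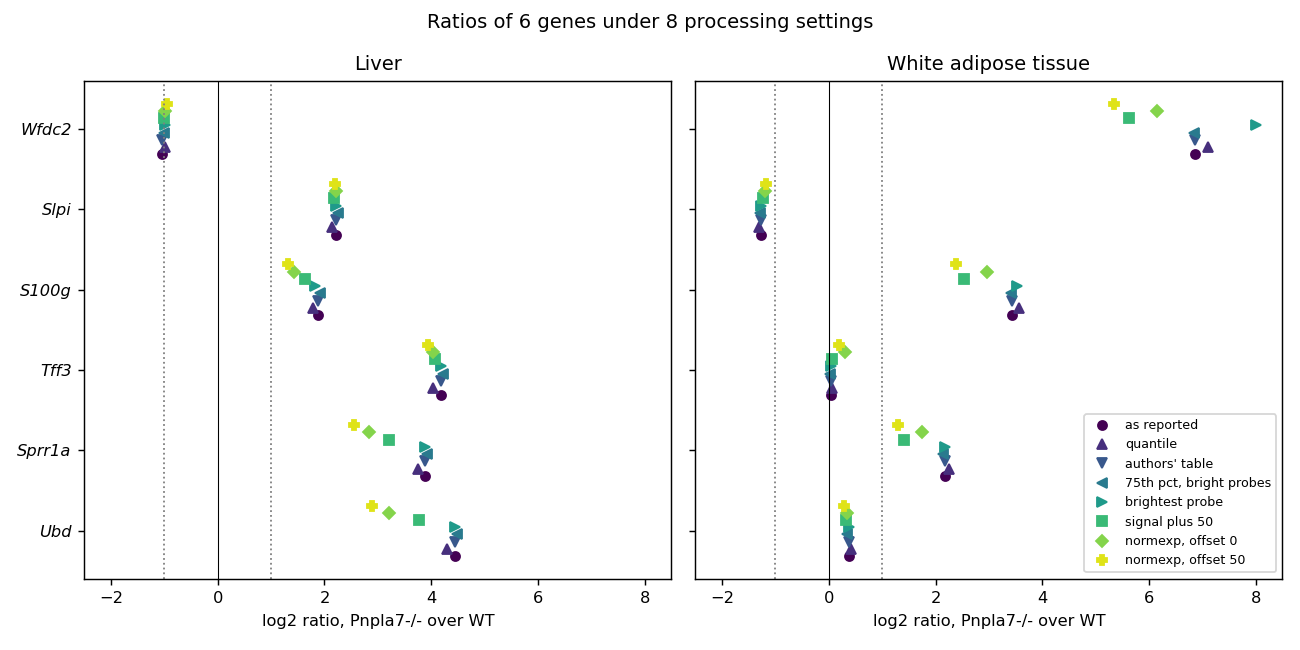
Log2 ratio of the labelled-knockout array over the WT array for 6 of the genes under 8 settings of the processing, in liver (left) and WAT (right), with 1 symbol a setting and dotted lines at 2-fold. Each gene stays on its side of 0 under every setting shown, and with normexp and an offset of 50 the ratio of Ubd in liver is smaller, at 2.88, as are those of Sprr1a in liver, at 2.56, and of Wfdc2, S100g and Sprr1a in WAT, at 5.35, 2.38 and 1.30.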

How the data were processed

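RNA was measured on 4 one-colour Agilent arrays. The deposited scanner output is spot intensity from Agilent Feature Extraction 11.0.1.1 (per the submitters' processing notes), and its processed signal is background-corrected, per the file headers. The authors' deposited value table held linear ratio values of each signal to 1 constant for each array (the header's 75th percentile), with no centring of genes and column medians between 0.0737 and 0.0876, and it was used as an alternative. Levels were log2 processed signals less the 75th percentile of the array, computed with Python 3.11.15, after outlier spots were dropped and spots of a probe averaged. Alternatives used R 4.3.3 and limma 3.58.1.

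A gene's ratio was the mean over probes with more than 0.5 of their spots well above background on both arrays of a pair. A probe above background on 1 array of a pair gave a lower bound, its bright level less the larger of its own dim level and the lowest level of any probe well above background on the dim array. The 2-fold limit stands for a call, since 1 array per group allows no test, and the number of arrays limits the precision. Probe names were updated through the GRCm38.p6 RefSeq table: 27234 probes by accession, 3576 by symbol and 565 by synonym, while 1817 kept the name in the file and 6237 had none. The table's coordinates were used for promoters only.

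The 7 genes, 23 gene lists and all limits were chosen with earlier results of these data known. Named genes are the 7, Pnpla7, up to 4 genes of each list with the largest ratios per tissue, defining markers below background, and the 3 most alike patterns per gene (not given for Fxyd4, at background on 3 arrays), among genes above background on at least 1 array with a range of at least 1 (log2). Mal2, Cyp2e1, Krt14, Krt5, Trp63, Aqp2, Adipoq, Tgm1 in WAT, Lor in WAT, Elane in liver, Trpv6 in liver, and genes outside that rule given as a bound or as not above background, were named once their values had been seen. The steps from spots to probe levels, the scaling to the array's percentile and the gene ratios were tested on simulated data. The lower bounds, gene lists, summed levels, pattern likeness, motif search and alternative settings were not tested in that way.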

Additional observations from a re-analysis of the deposited data

Results flagged for a closer look

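Wfdc2 and Slpi stood apart because their difference between genotypes had opposite directions in the 2 tissues, past 2-fold in each. The WAT log2 ratio minus the liver log2 ratio was 7.91 for Wfdc2, from 6.87 in WAT and -1.04 in liver, and -3.47 for Slpi, from -1.26 in WAT and 2.21 in liver. With 1 array per group, the difference between tissues was not tested. The liver ratio of Wfdc2 lies on the 2-fold limit, so whether it passes that limit depends on the setting of the processing.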

How the results depend on the processing

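No paired analysis was possible because each group had 1 array, and for the same reason no array could be left out. Of the 7 genes, 5 in liver and 3 in WAT were at least 2-fold higher under each of the alternatives run, save that 4 were in WAT when dim probes were kept, and 0 of 108 alternative values of their log2 ratios changed sign (87 moved by no more than the model error, 21 by more). The 1 gene at least 2-fold lower in liver, Wfdc2, became 0 with normexp at offset 50 or 0, with quantile normalization, with the percentile over probes above background on all 4 arrays, with the brightest probe and at 3-fold, and the 1 lower in WAT, Slpi, became 0 at 3-fold. Over all genes in liver, the 276 higher became 104 with normexp at offset 50, 114 at offset 0, 153 with 50 added to the signal, 767 with no filter on dim probes and 80 at 3-fold, and the 143 lower became 267, 1646, 99, 492 and 40 in the same order. Over all genes in WAT, the 367 higher became 222 with normexp at offset 50, 763 with no filter and 139 at 3-fold, and the 332 lower became 164 with normexp at offset 50, 214 at offset 0, 198 with 50 added, 762 with no filter and 71 at 3-fold. The share of higher among called genes in liver was 65.9%, against 28.0% and 6.48% with normexp at offset 50 and 0, which also shifted the liver median to -0.20 and -0.21. Beyond the higher limit and the missing filter, which set their own counts, the cause was not tested. Of 920 alternative counts for the gene lists, 92 differed from the reported count by over 1.5 times. The Wfdc2, S100g and Sprr1a ratios and the Fxyd4 bound in WAT are limited by the dim signal on the WT array. There S100g gave 50.5 and 44.2 intensity units by its probes and Sprr1a gave 43.5. The Sprr1a and Ubd ratios in liver are also limited in that way, with 75.6 and 78.6 intensity units on the WT liver array.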
